A study of Mus musculus with 6 samples.

Results

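The proteasome is the large protease that degrades ubiquitin-tagged proteins, and its subunits are encoded by the Psm genes. They were taken here as all genes of the table whose symbol begins with Psma to Psmg followed by a digit, leaving out Psmc3ip, which is named for its binding to a subunit, and pseudogenes marked -ps. This gave 49 of the 31641 genes in the table. RNA-seq libraries were made from total RNA of E14, a mouse embryonic stem cell line, 6 in all. KD comprised 3 libraries of Nat10 KD cells given doxycycline, and CON 3 libraries of Nat10 WT cells without it, so the drug and the knockdown cannot be told apart. Nat10 encodes an acetyltransferase that makes N4-acetylcytidine on RNA. The sources used here do not state how doxycycline lowers Nat10 or whether 1 clone or several were used. Nor do the labels say that the replicates came from separate cultures; the p-values therefore rest on a spread between libraries that may be technical.

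The proteasome consists of a barrel, the 20S core, with rings of alpha subunits that gate it and rings of beta subunits that carry the cutting sites. A 19S regulatory particle caps the barrel, where ATPases of its base unfold the substrate and its lid removes ubiquitin. In immune cells, and in other cells under interferon, the cutting subunits Psmb6, Psmb7 and Psmb5 are replaced by Psmb9, Psmb10 and Psmb8, which makes an immunoproteasome that favours peptides for antigen presentation. Embryonic stem cells are known for high proteasome activity. Of the 49 genes, 14 encode constitutive core subunits, 17 the regulatory particle and 3 the immunoproteasome. A further 7 encode assembly chaperones, 5 activators or inhibitors and 2 tissue-specific core subunits, and Psme2b is a copy of Psme2.

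Libraries held between 33770755 and 39524273 counts. Nat10 had 26.2, 27.2 and 28.7 CPM (counts scaled to library size, with TMM factors) in KD-1 to KD-3, against 146, 151 and 149.9 CPM in CON-1 to CON-3 (log2 fold change -2.44, edgeR adjusted p = 4.21e-14). Over all 18019 genes tested in this way, 30.8% were lower in KD and 32.2% higher. All 8 embryonic stem cell markers were detected, at a summed 2013 to 2107 CPM in KD libraries and 5649 to 5697 CPM in CON libraries, and all 8 fell. The 5 feeder fibroblast markers found in the table summed to 51.1 to 56.7 CPM in KD and 23.9 to 28.1 CPM in CON, with Col3a1 under 1 CPM in every library, and 3 of the 4 tested rose and 1 fell. The 8 immune cell markers summed to 54.4 to 58.1 CPM in KD and 40.1 to 45.1 CPM in CON, with Ptprc and Lyz2 among those under 1 CPM in every library, Ptprc at 0 in all KD libraries and Lyz2 at 0 in all CON libraries. Of the 6 immune markers tested, 3 rose, 2 fell and 1 did not pass, which for so few genes is not far from the shares of all genes. The rises were those of Cd74, Cd68 and Lyz2. Lyz2 had 17, 26 and 14 counts in KD-1 to KD-3 and could be tested through its KD counts only, so its rise carries little weight. The part of these cells in the results below was not tested, and in bulk RNA fewer cells of a type and less RNA per cell cannot be told apart.

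Proteasome genes were slightly lower in KD as a rule, but some subunits of the same complex rose. Of the 47 genes with enough counts to test, 26 fell, 8 rose and 13 did not pass (edgeR quasi-likelihood test with Benjamini-Hochberg adjustment over all genes, threshold 0.05). That is 55.3% of the 47 lower and 17% higher, where over all 18019 genes tested 30.8% were lower and 32.2% higher, 63% in all. Log2 fold changes of KD over CON ran from -0.66 for Psmd14 to 0.57 for Psmb9, centred on a median of -0.19 against 0.02 for all genes. The KD and CON libraries did not overlap for 25 genes that were lower in KD and 9 that were higher, where 32.8% and 34.4% of all tested genes did so.

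These counts depend on how libraries are scaled. With library size only, the median of all genes moved by 0.23 on the log2 scale, 13 proteasome genes were lower (27.7%, against 19.6% of all genes) and 16 higher (34%, against 46%). Relative to the median gene, the proteasome median was -0.21 under either scaling. A change of scaling moves all genes nearly alike, so this agreement had to arise and is no separate check. The 8 rises and 13 of the falls passed under both scalings, and no gene passed in opposite directions. As library size only moved genes upward, it put the falls to the test but hardly the rises. The other 13 falls, those of Psma1, Psma5, Psma7, Psma8, Psmb3, Psmd1, Psmd4, Psmd6, Psmd7, Psmd8, Psmd9, Psmd10 and Psmg4, did not pass with library size only.

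**Figure D1:**
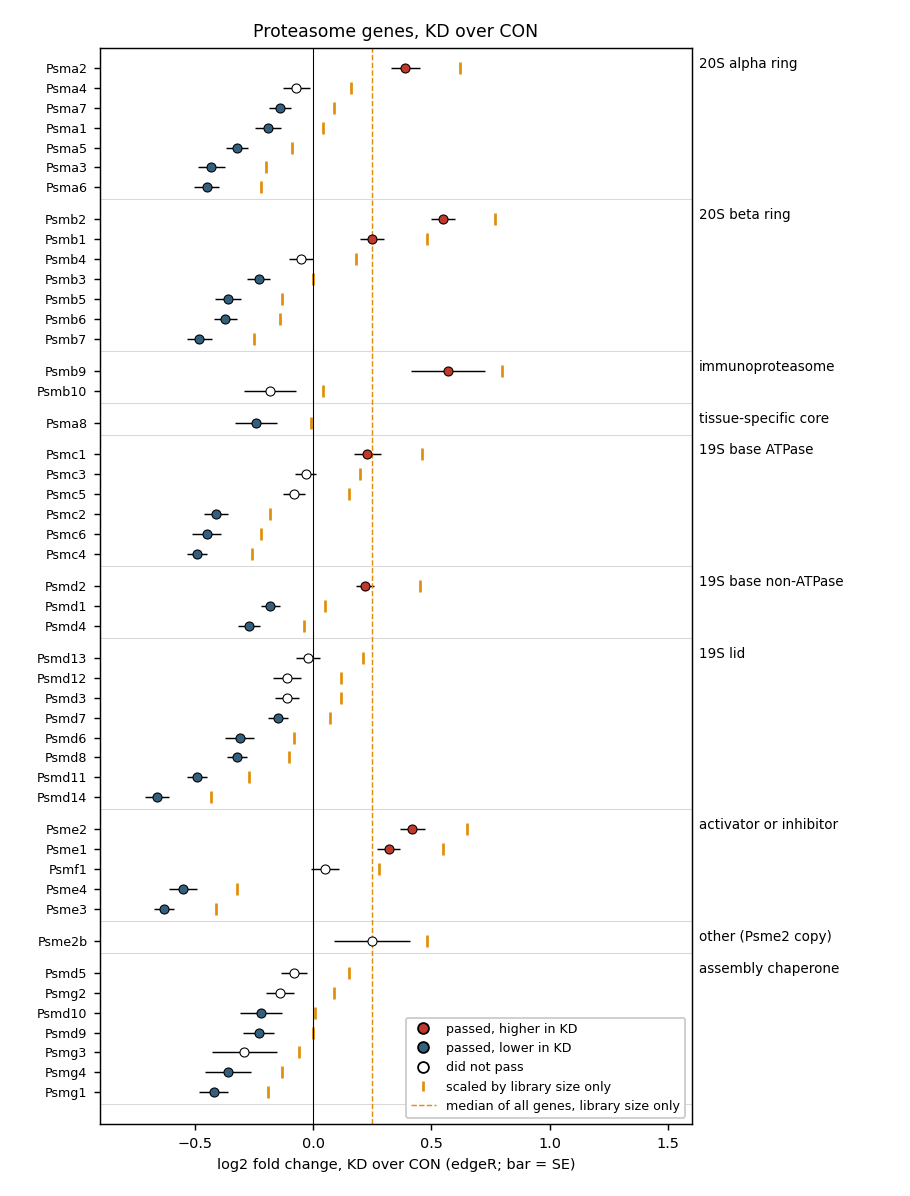
Log2 fold change of KD over CON for the 47 tested proteasome genes, grouped by role (x axis, log2; circles are edgeR estimates with TMM scaling and bars their standard error; filled circles passed). Orange ticks give the fold change with libraries scaled by size only, whose all-gene median is the dashed line at 0.25; with TMM scaling each class of core and base subunits holds both rises and falls.

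Promoter sequences of RefSeq (GRCm38.p6) were found for 41 of the 49 genes. The sites shown are those that regulators of these genes are known to bind. The antioxidant response element, bound by Nfe2l1, which raises proteasome genes when the protease is impaired, was searched as TGACNNNGC. The core of the interferon-stimulated response element was searched as GAAA, any 2 bases and GAAA again. Both strands of the 250 bases before and 50 bases after the start were read. TGACNNNGC was held by 6 of the 41 genes (14.6%, against 12.5% of all 27025 genes with a window), and the interferon motif by 5 (12.2%, against 3.49%). Examples follow with the match in capitals. They are from Psmb5 and Psmb6, which fell, from Psme1, which rose, and from Psmg4, which was lower with TMM scaling only.
Psmb5, chr14:54618024-54618052, reverse strand: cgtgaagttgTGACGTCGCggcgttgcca
Psmb6, chr11:70525338-70525366, forward strand: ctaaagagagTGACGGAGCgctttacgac
Psme1, chr14:55578493-55578522, forward strand: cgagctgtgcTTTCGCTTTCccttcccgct
Psmg4, chr13:34162969-34162998, forward strand: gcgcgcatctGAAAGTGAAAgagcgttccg
The other genes with TGACNNNGC were Psmc6 and Psme4, which fell, Psmd9, which was lower with TMM scaling only, and Psmd12, which did not pass. The other genes with the interferon motif were Psmb3, Psmd4 and Psmd9, which were lower with TMM scaling only. A match is a run of letters and not a shown binding site.

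The members that carry the cutting sites of the constitutive core all fell. Psmb5, whose site cuts after hydrophobic residues, had 71.4, 65.3 and 66.6 CPM in KD-1 to KD-3, against 83.1, 88.5 and 88.9 CPM in CON-1 to CON-3. Psmb6, with the caspase-like site, had 212, 208 and 186 CPM in KD, against 260.0, 262 and 263 CPM in CON. Psmb7, with the trypsin-like site, had 75.3, 79.3 and 84.3 CPM in KD, against 115, 106 and 112 CPM in CON. All 3 KD libraries lay below all 3 CON libraries for each of these genes. The log2 fold changes were -0.36 for Psmb5 (SE 0.0544, edgeR adjusted p = 3.32e-05), -0.37 for Psmb6 (SE 0.0507, edgeR adjusted p = 1.11e-05) and -0.48 for Psmb7 (SE 0.0546, edgeR adjusted p = 1.74e-06). Psmb5 has a near-identical copy, Gm3375, matching it at 98.9% over 796 bases, which held 1403, 1314 and 1248 counts in KD and 1588, 1628 and 1528 in CON. Reads common to both could be split either way, so both levels are uncertain. Psmb7 shares 405 exonic bases with Nek6 on the opposite strand, and without a stated strand setting their reads there cannot be told apart.

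The other beta subunits, which have no cutting site, moved both ways. Psmb2 rose, with 122, 119.7 and 114 CPM in KD-1 to KD-3, against 78.2, 84.2 and 81.2 CPM in CON-1 to CON-3. This was the largest rise among the 14 constitutive core subunits, 1.46-fold (log2 fold change 0.55, SE 0.0499, edgeR adjusted p = 1.44e-07). Psmb1 rose 1.19-fold, with 178, 173 and 196 CPM in KD, against 157, 150.1 and 151 CPM in CON (edgeR adjusted p = 0.000508). The groups did not overlap for either gene. Psmb3 was 1.17-fold lower with TMM scaling and had a log2 fold change of 0.00 with library size only. Psmb4 averaged 306 ± 14.9 CPM in KD and 316 ± 19.1 CPM in CON (SD, n = 3 each) and did not pass with TMM scaling, but was higher with library size only (edgeR adjusted p = 0.00504).

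In the alpha rings, which gate the barrel, 5 of 7 genes fell and 1 rose with TMM scaling, while Psma4 missed the threshold. That is 71.4% lower and 14.3% higher, against 30.8% and 32.2% of all genes tested. With library size only 2 fell and 2 rose (28.6% each, against 19.6% and 46% of all genes). Psma2 was the member that rose, with 119, 121 and 133 CPM in KD-1 to KD-3, against 102, 92.7 and 89 CPM in CON-1 to CON-3, a 1.31-fold change (log2 fold change 0.39, SE 0.0604, edgeR adjusted p = 3.86e-05). Psma6 fell 1.36-fold, with 106, 108 and 119.8 CPM in KD and 155, 150.2 and 149 CPM in CON (edgeR adjusted p = 2.37e-06). Psma3 fell 1.34-fold, with 108, 114 and 125 CPM in KD and 164, 148 and 154 CPM in CON (edgeR adjusted p = 1.03e-05). Both fell under either scaling, while Psma5, 1.25-fold lower with TMM scaling (edgeR adjusted p = 2.19e-05), did not pass with library size only. Genes that match Psma3 at 95% identity or more over at least 100 bases held 10.6% as many counts as Psma3, so its level is less certain. Psma4 averaged 112 ± 9.19 CPM in KD and 118 ± 4.68 CPM in CON (SD, n = 3 each) and did not pass with TMM scaling. It was lower without KD replicate 3 (edgeR adjusted p = 0.00405) and higher with library size only (edgeR adjusted p = 0.0262).

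Because core subunits assemble in equal numbers, their transcripts were also set against each other within each library, which does not depend on library scaling. For this, CPM per kilobase of gene length was divided by the median over the 14 constitutive core genes. Psmb2 stood at 2.09, 2.19 and 1.95 times that median in KD-1 to KD-3, against 1.23, 1.34 and 1.28 times in CON-1 to CON-3. Psma2 stood at 0.669, 0.723 and 0.745 times in KD, against 0.529, 0.483 and 0.46 times in CON. Psmb1 was higher as well, at 0.835 ± 0.0373 times in KD and 0.634 ± 0.015 times in CON (SD, n = 3 each). On the other side, Psmb7 stood at 0.491 ± 0.0314 times the median in KD and 0.616 ± 0.0226 times in CON, and Psma6 at 1.9 ± 0.111 and 2.34 ± 0.0497 times (SD, n = 3 each). Of the 14 genes, 3 were higher in every KD library than in any CON library, 7 were lower in this way and 4 overlapped. The lengths are the union of all annotated exons, so the order of levels between genes depends on rare exons as well as on expression. They also decide which genes lie at the median, so through that divisor the comparison of KD with CON depends on them too.

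**Figure D2:**
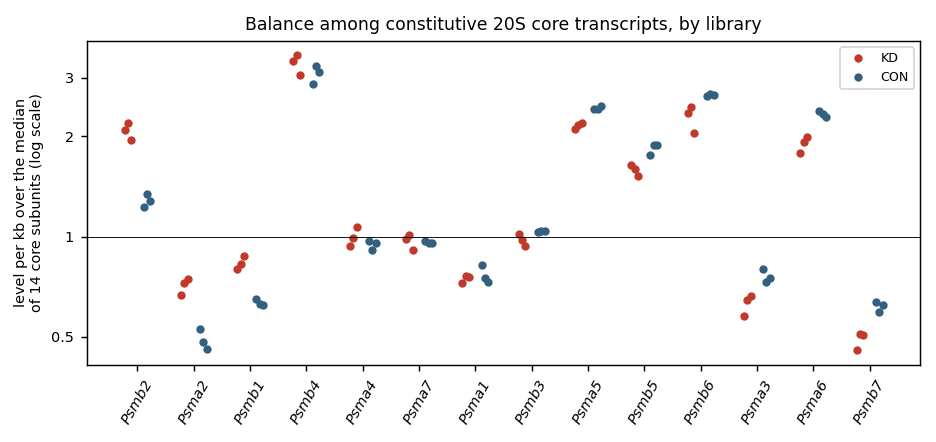
Level of each constitutive core transcript per kilobase, divided by the median of the 14 core genes in the same library (y axis, log scale), with 1 point per library. Genes are ordered by the ratio of KD (red, left) to CON (blue, right); Psmb2, Psma2 and Psmb1 lie higher in all 3 KD libraries, and Psmb7, Psma6 and Psma3 lower.

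The immunoproteasome subunits were scarce in both groups, and their levels differed from gene to gene. Psmb9, the counterpart of Psmb6, had 7.75, 8.29 and 7.44 CPM in KD-1 to KD-3, against 4.72, 6.79 and 4.21 CPM in CON-1 to CON-3. All KD libraries were above all CON libraries, a 1.49-fold rise (edgeR log2 fold change 0.57 with SE 0.155, adjusted p = 0.00448). Psmb8, the counterpart of Psmb5, had 17, 21 and 7 counts in KD, against 2, 4 and 0 in CON. It did not reach the count filter; in the fit with no filter it was higher in KD (log2 fold change 2.60, SE 0.785, edgeR adjusted p = 0.00321, where 18.8% of all genes were called higher), and the size of that change rests on 6 counts in CON. Psmb10, the counterpart of Psmb7, had 12.8, 11.1 and 9.51 CPM in KD and 11.9, 12.9 and 13.2 CPM in CON, so the groups overlapped and it did not pass (edgeR adjusted p = 0.158). Without KD replicate 1, however, Psmb10 was lower in KD (log2 fold change -0.30, edgeR adjusted p = 0.029).

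In GENCODE M21 (GRCm38), Psmb9 occupies bases 34181987 to 34187764 of chromosome 17, reverse strand. It shares 212 exonic bases with Tap1, the peptide transporter gene next to it on the opposite strand. Tap1 held 2172, 2191 and 1644 counts in KD and 386, 348 and 401 in CON, while Psmb9 held 325, 355 and 272 in KD and 161, 247 and 137 in CON. Without a stated strand setting, reads from the shared bases cannot be told apart, and their part in the rise of Psmb9 was not tested. Psmb8, from 34197721 to 34201454 on the same chromosome, likewise shares 498 exonic bases with Gm20496.

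Each immunoproteasome subunit was then set against the constitutive subunit it replaces, per kilobase and within each library. The level of Psmb9 was 1.87, 2.04 and 2.05% of that of Psmb6 in KD-1 to KD-3, against 0.93, 1.33 and 0.818% in CON-1 to CON-3. The difference in mean log2 ratio, KD minus CON, was 0.98, with no overlap between groups (exact permutation p = 0.1, two-sided, the smallest that 3 against 3 libraries allow; adjusted p = 0.15 over the 3 pairs). Psmb8 was at 0.151, 0.2 and 0.0764% of Psmb5 in KD, against 0.0188, 0.033 and 0% in CON, a difference of 3.11 with a pseudocount of 0.5 counts (exact permutation p = 0.1, adjusted p = 0.15). Psmb10 was at 34.1, 28.1 and 22.6% of Psmb7 in KD, against 20.9, 24.5 and 23.6% in CON, with overlapping groups (difference 0.28, exact permutation p = 0.3, adjusted p = 0.3). Leaving out 1 library at a time, the difference ran from 0.83 to 1.18 for Psmb9, from 2.22 (without CON replicate 3) to 3.73 for Psmb8, and from 0.13 (without KD replicate 1) to 0.43 (without KD replicate 3) for Psmb10.

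**Figure D3:**
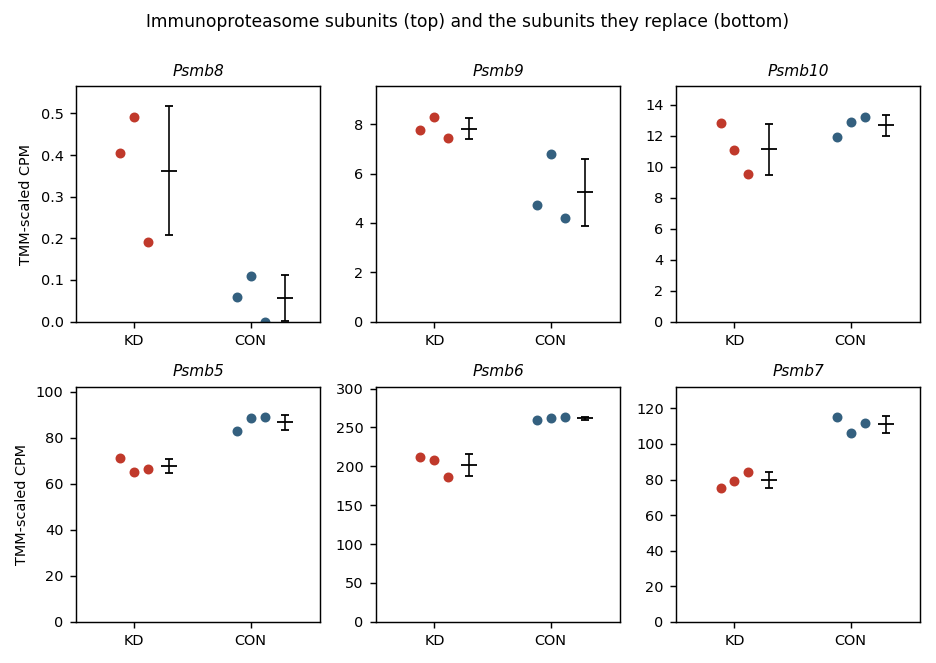
TMM-scaled CPM of the immunoproteasome genes Psmb8, Psmb9 and Psmb10 (top) and of the constitutive subunits they replace, Psmb5, Psmb6 and Psmb7 (bottom), with 1 point per library and bars for mean and SD (n = 3). Psmb8 and Psmb9 are higher in every KD library (red) than in any CON library (blue), Psmb10 overlaps, and the constitutive partners are lower.

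The tissue-specific core genes differed in level. Psma8, the alpha subunit known from testis, was expressed at 18.5, 17.8 and 21.2 CPM in KD-1 to KD-3, against 24.8, 21.9 and 20.9 CPM in CON-1 to CON-3, so that the groups overlapped. It passed narrowly (log2 fold change -0.24, edgeR adjusted p = 0.0323), and its call was lost without KD replicate 1 (adjusted p = 0.074), KD replicate 2 (0.126), CON replicate 1 (0.146) or CON replicate 2 (0.0507) in edgeR. Psmb11, the beta subunit of the thymus, had 4, 2 and 8 counts in KD and 0, 9 and 2 in CON and was not tested.

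In the regulatory particle, 10 of 17 genes fell and 2 rose, while 5 missed the threshold. That is 58.8% lower and 11.8% higher, against 30.8% and 32.2% of all genes tested. The median change was -0.18 on the log2 scale. With library size only 5 fell and 5 rose (29.4% each, against 19.6% and 46% of all genes), and the median was 0.05. Psmd14, the lid enzyme that cuts ubiquitin off the substrate, had the largest fall of all proteasome genes. It had 78.8, 81.1 and 87.5 CPM in KD-1 to KD-3, against 131, 129 and 132 CPM in CON-1 to CON-3, a 1.58-fold lower level without overlap (log2 fold change -0.66, SE 0.0506, edgeR adjusted p = 1.85e-08). Psmd11, a structural subunit of the lid, fell 1.41-fold to 139 ± 3.46 CPM in KD, against 195 ± 3.38 CPM in CON (SD, n = 3 each; edgeR adjusted p = 9.32e-08). With TMM scaling 5 of the 8 lid genes fell and none rose, while with library size only Psmd8, Psmd6 and Psmd7 did not pass and Psmd13 was higher. Psmd3, Psmd12 and Psmd13 did not pass with TMM scaling, with log2 fold changes from -0.11 to -0.02. Psmd12 was lower without KD replicate 3 (edgeR adjusted p = 0.000113), and Psmd3 without KD replicate 1 or CON replicate 1 (edgeR adjusted p = 0.0206 and 0.0196).

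The ATPases that unfold the substrate form a ring of 6 different subunits, and their transcripts diverged. Psmc4 had 127, 127 and 123 CPM in KD-1 to KD-3, against 173, 179 and 179 CPM in CON-1 to CON-3, a fall of 1.41-fold (edgeR adjusted p = 1.02e-07). Psmc6 and Psmc2 fell 1.37-fold and 1.33-fold (edgeR adjusted p = 9.1e-06 and 4.44e-06). Psmc1 rose 1.17-fold, with 136, 143 and 154 CPM in KD against 129.7, 115 and 125 CPM in CON (edgeR adjusted p = 0.00294). Psmc3 and Psmc5 did not pass with TMM scaling, with log2 fold changes of -0.03 and -0.08, and were higher with library size only. Psmc3 shares 215 exonic bases with Slc39a13 on the opposite strand, which held 742, 843 and 643 counts in KD and 359, 357 and 347 in CON. The part of reads from these bases in the level of Psmc3 was not tested. Of the base subunits without ATPase activity, the scaffold Psmd2 rose 1.17-fold to 566 ± 14.4 CPM in KD, against 486 ± 9.22 CPM in CON (SD, n = 3 each; edgeR adjusted p = 0.000153). The ubiquitin receptor Psmd4 had 268, 273 and 266 CPM in KD and 302, 330.2 and 339 CPM in CON, 1.2-fold lower with TMM scaling (edgeR adjusted p = 0.00015). Psmd1 was 1.14-fold lower with TMM scaling (edgeR adjusted p = 0.00126) and turned to a log2 fold change of 0.05, not passing, with library size only.

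The balance between core and regulatory particle overlapped between the groups. Summed over genes, the core had 1915, 1878 and 1927 CPM in KD-1 to KD-3 and 2108, 2087 and 2095 CPM in CON-1 to CON-3. The regulatory particle had 3092, 3096 and 3185 CPM in KD and 3414, 3481 and 3518 CPM in CON. Per kilobase, the sum of the core was 0.957, 0.93 and 0.914 times that of the regulatory particle in KD, against 0.955, 0.943 and 0.929 times in CON, with overlapping groups. The immunoproteasome genes together had 20.9, 19.9 and 17.1 CPM in KD and 16.7, 19.8 and 17.4 CPM in CON, which also overlapped, with Psmb10 the most abundant of the 3. These sums depend on the scaling, unlike the ratio of core to regulatory particle. With library size only, the median of all genes moved upward by 0.23 on the log2 scale. The lower core and regulatory sums in KD, and the overlap of the immunoproteasome sums, therefore hold for TMM scaling only.

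The activators that bind the core in place of the regulatory particle split in 2 pairs. Psme1 and Psme2 form the interferon-inducible activator, which assists antigen processing, and both rose. Psme1 had 91.1, 91 and 94.4 CPM in KD-1 to KD-3, against 73.7, 74.3 and 73.2 CPM in CON-1 to CON-3 (edgeR log2 fold change 0.32 with SE 0.0478, adjusted p = 2.59e-05). Psme2 had 69.7, 71.9 and 70.7 CPM in KD, against 52.8, 52.1 and 53.8 CPM in CON (log2 fold change 0.42, SE 0.0516, edgeR adjusted p = 3.59e-06). They are neighbours on chromosome 14, Psme1 from 55578123 to 55581529 on the forward strand and Psme2 from 55587441 to 55591113, reverse (GRCm38). Psme2b, on chromosome 11, matches Psme2 at 99.4% over 794 bases. It averaged 3.82 ± 0.407 CPM in KD and 3.19 ± 0.374 CPM in CON (SD, n = 3 each) and did not pass with TMM scaling but was higher with library size only (edgeR adjusted p = 0.0151), and the split of reads between the copies is uncertain.

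The nuclear activators fell. Psme3, the nuclear relative of Psme1 and Psme2, had 176, 176 and 178 CPM in KD-1 to KD-3, against 278, 272 and 271 CPM in CON-1 to CON-3, a 1.55-fold fall and the smallest p among proteasome genes (edgeR log2 fold change -0.63 with SE 0.0406, adjusted p = 2.64e-09). Psme4, a large activator known for acting on acetylated histones, had 165, 165 and 193 CPM in KD, against 268, 249.6 and 249 CPM in CON (edgeR log2 fold change -0.55 with SE 0.0588, adjusted p = 7.53e-07). The groups did not overlap for any of these 4 activators, and each kept its call with library size only. Psmf1, a regulator first described as an inhibitor of the core, averaged 44 ± 2.16 CPM in KD and 42.4 ± 1.07 CPM in CON (SD, n = 3 each) and did not pass with TMM scaling, but was higher with library size only (edgeR adjusted p = 0.000712).

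**Figure D4:**
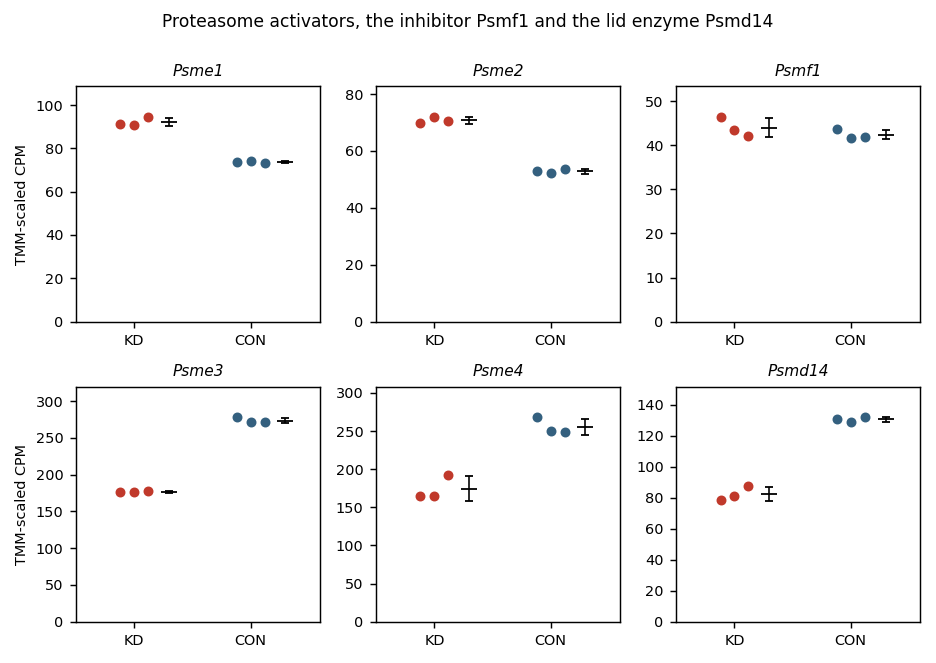
TMM-scaled CPM of the activator genes Psme1, Psme2, Psme3 and Psme4, of Psmf1 and of the lid enzyme gene Psmd14, with 1 point per library and bars for mean and SD (n = 3). Psme1 and Psme2 are higher in every KD library (red) than in any CON library (blue), Psme3, Psme4 and Psmd14 lower, and Psmf1 overlaps.

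Of the 7 assembly chaperones, 4 fell, none rose and 3 did not pass with TMM scaling. That is 57.1% lower, where 30.8% of all genes tested were lower and 32.2% higher. With library size only 1 fell and Psmd5 was higher (14.3% each, against 19.6% and 46% of all genes). Psmg1, which helps to build the alpha ring, had 45.8, 42 and 46.6 CPM in KD-1 to KD-3, against 58.3, 59.2 and 62.4 CPM in CON-1 to CON-3 (log2 fold change -0.42, edgeR adjusted p = 1.76e-05), and was the chaperone that also fell with library size only. Psmg4 averaged 15.8 ± 2.17 CPM in KD and 20.4 ± 0.843 CPM in CON (SD, n = 3 each; edgeR adjusted p = 0.00421). Psmd9 and Psmd10, which build the base, were 1.17-fold and 1.16-fold lower with TMM scaling (edgeR adjusted p = 0.00698 and 0.0464), and Psmd9 shares 1849 exonic bases with Gm26745 on the opposite strand. The groups overlapped for Psmd10, and its call was lost in edgeR on leaving out KD replicate 1 (adjusted p = 0.167), KD replicate 2 (0.152), CON replicate 1 (0.0676), CON replicate 2 (0.1) or CON replicate 3 (0.109).

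Among genes that regulate proteasome transcription, Nfe2l1 fell 1.97-fold, with 207 ± 3.51 CPM in KD and 407 ± 2.93 CPM in CON (SD, n = 3 each; edgeR adjusted p = 1.59e-11). On this list of 11 genes 5 rose and 4 fell (median -0.08 on the log2 scale), while 6 rose and 2 fell with library size only. Over all genes tested, 32.2% were higher and 30.8% lower with TMM scaling, and 46% and 19.6% with library size only. For so short a list, its counts are not far from these shares. Mafk, a small partner of Nfe2l1 on DNA, rose 1.98-fold, to 86.2 ± 4.84 CPM in KD against 43.5 ± 0.851 CPM in CON (edgeR adjusted p = 8.54e-10), and another such partner, Maff, fell 1.49-fold (edgeR adjusted p = 1.8e-06). Keap1, which holds the related factor Nfe2l2 in check, rose 1.7-fold (edgeR adjusted p = 3.27e-07), while Nfe2l2 did not pass with TMM scaling and was higher with library size only (edgeR adjusted p = 0.0173). Syvn1, a ubiquitin ligase of the endoplasmic reticulum, rose 1.56-fold (edgeR adjusted p = 5e-07). Bach1 was 1.18-fold lower, with TMM scaling only (edgeR adjusted p = 0.00119).

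Partners of the proteasome without a Psm name mostly fell with TMM scaling: 12 of the 17 tested fell, 3 rose and 2 missed the threshold. The median was -0.31 on the log2 scale. With library size only, 8 fell and 6 rose. Of all genes tested, 30.8% were lower and 32.2% higher with TMM scaling, and 19.6% and 46% with library size only. Ubqln4 and Rad23b, shuttles that bring ubiquitinated proteins to the proteasome, fell 2.29-fold and 1.76-fold (edgeR adjusted p = 1.22e-11 and 1.5e-10). Ubqln4 averaged 144 ± 6.41 CPM in KD and 331 ± 12.3 CPM in CON, and Rad23b 320.2 ± 7.89 CPM in KD and 563 ± 13.1 CPM in CON (SD, n = 3 each). Akirin2, which brings proteasomes into the nucleus, fell 1.58-fold (edgeR adjusted p = 1.35e-07). The members that rose were Sem1, the smallest lid subunit (1.27-fold), the ligase gene Ube3c (1.17-fold) and Pomp, which chaperones the maturing core (1.12-fold).

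Ubiquitin genes and those that attach or extract it moved both ways: of 14, 4 rose and 6 fell with TMM scaling. With library size only 8 rose and 2 fell. For so short a list, these counts are not far from the shares of all genes. Those were 32.2% higher and 30.8% lower with TMM scaling, and 46% and 19.6% with library size only. Vcp, which pulls ubiquitinated proteins out of complexes, rose 1.19-fold to 528 ± 19.8 CPM in KD against 442 ± 13.3 CPM in CON (SD, n = 3 each). Ube2g2, a conjugating enzyme, rose 1.19-fold. Rps27a, a ubiquitin fusion gene, and the conjugating enzyme gene Ube2d3 fell 1.43-fold and 1.49-fold (edgeR adjusted p = 6.15e-08 and 1.17e-07), and Ubb was 1.13-fold lower with TMM scaling only.

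Genes of antigen processing and interferon signalling, to which the immunoproteasome and Psme1 and Psme2 are linked by function, were higher in KD. Of 20 tested, 19 rose under both scalings, where 32.2% of all genes were higher with TMM scaling and 46% with library size only. Like the other lists, this one was chosen with earlier results of these data known, so its share is no independent check. The median was 0.60 on the log2 scale, beside 0.02 for all genes. Tap1 rose 4.46-fold, with 49.3 ± 3.8 CPM in KD and 11.1 ± 1.39 CPM in CON (edgeR adjusted p = 2.67e-11). The MHC class I genes H2-D1 and H2-K1 rose 2.46-fold and 2.51-fold, H2-D1 to 220.1 ± 10.2 CPM in KD against 89.6 ± 2.21 CPM in CON (SD, n = 3 each; edgeR adjusted p = 6.45e-12 and 3.67e-11). Of the immune cell markers, Ptprc had no count in any KD library, while Cd74 averaged 29.6 ± 1.41 CPM in KD and 19.7 ± 1.62 CPM in CON (SD, n = 3 each).

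**Figure D5:**
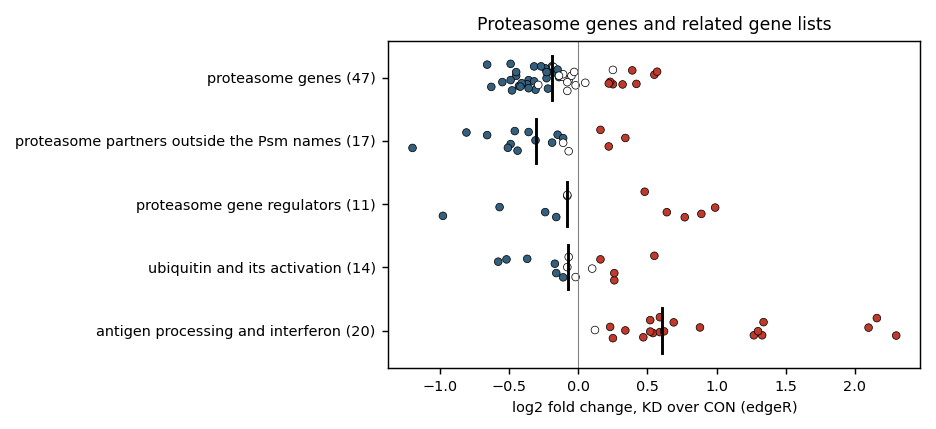
Log2 fold change of KD over CON (x axis; edgeR with TMM scaling) for the tested proteasome genes and the related gene lists, with 1 point per gene, the number tested in parentheses and a black line at each median. Red points passed and were higher in KD, blue points passed and were lower, and white points did not pass; the medians run from -0.31 for the partners to 0.60 for antigen processing and interferon.

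In the authors' deposited table, which gives CON over KD, 9 proteasome genes passed an adjusted p of 0.05 with higher levels in KD and 24 with lower levels, where 16.2% and 16.4% of all 31641 genes did so. Those shares include genes with too few counts to test, whereas 47 of the 49 proteasome genes had enough. In the edgeR fit, 32.2% of the 18019 genes tested were higher and 30.8% lower. The authors' deposited table labels 9.18% of genes as up or down, and among the 49 proteasome genes Psmb8 alone (log2 fold change -2.66 for CON over KD, adjusted p = 0.0263).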

How the data were processed

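The deposited table gives each gene's raw count in every library, per the file headers, with FPKM values that the authors scaled by gene length and library total, and the authors' own log2 fold change (CON over KD, from the values) and adjusted p-value per gene. Per the submitters' processing notes, FastQC 0.11.9, STAR 2.5.3a, featureCounts and mm10 were used; for annotation, strand setting and multi-mapping reads the sources used here give nothing. Gene lengths were recovered from counts and FPKM, and for all 49 genes equal the union of exons in GENCODE M21.

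Counts were fitted in R 4.3.3 with edgeR 4.0.16 over the whole table (filterByExpr, 18019 genes; TMM factors 0.922 to 0.926 in CON and 1.08 in KD; robust quasi-likelihood F-test of KD against CON; Benjamini-Hochberg). The standard error is the size of the log2 fold change over the square root of F. Alternatives used DESeq2 1.42.0 and other scalings and filters. The fit was tested on simulated data. A count was worth 0.0253 to 0.0296 CPM, and 70 to 71.7% of counts from 1 to 20 were even, so low counts may stand for fewer fragments. Copies were sought with BLAST at 95% identity over 100 bases or more.

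Members and lists were chosen with earlier results of these data known. Named are the 3 immunoproteasome genes and their partners, up to 3 genes per class or list and direction by smallest p, and genes not tested; others named were chosen after their values were seen. Paaf1, Dcn and Lum, on the lists, were not analysed here. Some genes of the lists are not reported here.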

Additional observations from a re-analysis of the deposited data

How the results depend on the processing

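With libraries scaled by size only, 16 proteasome genes were higher and 13 lower, and the median log2 fold change turned to 0.02 for the core and 0.05 for the regulatory particle and moved to 0.42 for the tested immunoproteasome genes; the median of all genes moved by 0.23 alike. Among the 29 tested genes chosen by the naming rule, Psmd1 turned to 0.05, Psmd9 to 0.00 and Psmb10 to 0.04. A further 5 of these 29 lost their call, and over all proteasome genes 13 falls no longer passed. With no count filter the immunoproteasome median was 0.58, as Psmb8 was then included. DESeq2, DESeq2 size factors, a filter of 1 CPM in 3 libraries, the replicate block and counts divided by 2 changed no call among the 29 tested genes chosen by the naming rule; under the replicate block 8 genes were higher and 26 lower. Same-numbered libraries deviated from their group means with correlations of -0.0608, 0.0151 and -0.0387, and no library correlated best with its own number, so the numbers were not taken as pairs. Leaving out 1 library at a time gave 8 to 9 genes higher and 24 to 31 lower, core medians from -0.24 to -0.19, regulatory medians from -0.21 to -0.18 and immunoproteasome medians from 0.14 to 0.81, where Psmb8 passed the filter in some fits, and changed the calls of Psma8 and Psmb10 only among the genes chosen by the naming rule. Of the other proteasome genes, Psmd10 lost its call in 5 of these fits, and Psma4, Psmc5, Psmd3, Psmd5, Psmd12, Psmg2 and Psmg3 became lower in 1 or 2. Psmd3 was also lower with DESeq2 size factors (adjusted p = 0.0397), DESeq2 (0.047) and no count filter (0.0477), and Psmg2 with DESeq2 size factors (0.0407). A pseudocount of 2 gave a difference of 2.24 for Psmb8 over Psmb5. Depth limits Psmb8 and Psmb11 most.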

Other observations

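Of the 10 motifs searched in promoters, CCGGAAG, the core bound by ETS factors, was held by 13 of 41 proteasome genes (31.7%, against 9.12% of all genes with a window), of which Psmc1 and Psmd2 rose and Psmc2, Psmc6, Psmd11, Psme3, Psme4 and Psmg1 fell under both scalings. CCAAT was held by 14 (34.1%, against 37.9%), and TGAGNNNGC, another form of the antioxidant response element, by 11 (26.8%, against 17.5%). TGACTCAGC and TGACGTCA were in none of the 41 windows, against 0.426 and 1.88% of all genes. The remaining 3 were held by 2 or 3 proteasome genes each.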
